A study of Mus musculus with 27 samples.

Results

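Genes of the endoplasmic reticulum (ER) stress response and of protein folding in the ER were followed through a reproductive cycle in whole mouse liver. The set holds 33 listed protein-coding genes, and all 33 were found among the 51826 gene identifiers of the tables by matching identifier to symbol. The rule that picks the members is the list itself and sets no threshold on a measured value, though the list was drawn up with earlier results of these data known. Here they are taken by role: 3 stress sensors, 4 transcription factors, 14 chaperones and folding enzymes, 7 genes of ER-associated degradation, and 5 genes known as targets of the factors ATF4 and CHOP.

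All 27 livers came from wild-type BALB/c mice, an inbred strain, and each liver was frozen, pulverised and sequenced as 1 bulk library. The nulliparous group (NUL) had 4 mice, and the group taken on day 10 of lactation (LAC) had 3. Involution was followed in 3 mice on day 2 (ID2), 4 on day 4 (ID4), 6 on day 6 (ID6) and 3 on day 8 (ID8), counted from weaning. A last group of 4 mice was taken 4 weeks post-weaning (REG). The dams were mated at 10 to 12 weeks of age and litters were taken away after 10 to 14 days of lactation. Animals are called below by their titles, which join the stage and a number. Because whole tissue was sequenced, fewer cells of a type and less RNA per cell cannot be told apart.

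Newly made secretory and membrane proteins fold in the ER, and the liver, which makes most plasma proteins, carries a heavy folding load. When unfolded proteins accumulate, 3 membrane sensors signal to the nucleus in what is called the unfolded protein response. ATF6 is cut to release a transcription factor, IRE1 (gene Ern1) splices the mRNA of Xbp1, and both XBP1 and ATF6 are known to switch on chaperones and degradation genes. PERK (gene Eif2ak3) phosphorylates the translation factor eIF2, which slows protein synthesis and favours translation of Atf4. ATF4 and its target CHOP (gene Ddit3) switch on amino acid, redox and cell death genes, and ATF4 also answers to amino acid shortage and other stresses outside the ER. Gene-level counts show neither Xbp1 splicing nor protein activity.

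Promoter elements known to be read by ATF6 and XBP1, and by ATF4, are shown first. The matches do not separate the roles, since Herpud1 held elements of both kinds and several chaperones held none. RefSeq promoter windows (GRCm38.p6, 250 bases before to 50 after the start) were found for 29 of the 33 genes, and not for Atf6, Derl1, Hyou1 or Manf. The ER stress element, CCAAT, any 9 bases and CCACG, was searched on both strands. It was present in 9 of the 29 genes (31%), namely Calr, Canx, Creld2, Derl3, Dnajc3, Hsp90b1, Hspa5, Pdia6 and Syvn1. Of all 32851 promoter windows 0.119% held it. The first share counts genes and the second counts windows, here and for the elements below. A second form, ATTGG, any base and CCACG, was present in Dnajb11 and Herpud1 and in 0.0365% of all windows. The UPR element TGACGTGG was present in 0 of the 29 and in 0.676% of all windows. The C/EBP-ATF response element TGATGNAA, known as the site of ATF4 dimers, was present in 5 of the 29 (Asns, Atf3, Chac1, Herpud1 and Trib3) and in 3.97% of all windows. The 2 forms of the ER stress element and the UPR element share the letters CCACG, read on either strand. A match describes letters only, and binding was not measured.

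Shown for 7 genes is the ER stress element in capitals with 5 bases on each side, written 5′ to 3′ on the strand of the gene, the first 5 from genes that fell at ID2 against LAC and the last 2 from genes that did not pass that test. Where the capitals begin with CGTGG, the element lies on the opposite strand.
Hspa5: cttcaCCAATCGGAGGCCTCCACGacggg
Syvn1: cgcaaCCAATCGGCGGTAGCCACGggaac
Pdia6: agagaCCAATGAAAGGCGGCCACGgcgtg
Dnajc3: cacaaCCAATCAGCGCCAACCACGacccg
Creld2: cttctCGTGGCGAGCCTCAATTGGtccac
Calr: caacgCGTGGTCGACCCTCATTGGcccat
Canx: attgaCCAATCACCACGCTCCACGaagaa
These lie at chr2:34772020-34772048, chr19:6046527-6046555, chr12:17266486-17266514, chr14:118937822-118937850 and chr15:88819515-88819543 on the plus strand, and at chr8:84847070-84847098 and chr11:50325795-50325823 on the minus strand (GRCm38.p6). For comparison, the C/EBP-ATF response element is shown in Chac1, whose product degrades glutathione, at chr2:119351044-119351061, and in Herpud1, at chr8:94386312-94386329, both genes of the plus strand with the element on the opposite strand.
Chac1: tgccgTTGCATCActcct
Herpud1: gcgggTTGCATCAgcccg

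The whole stretch before the start of Creld2 is printed because this gene had the largest fitted fall of the set between LAC and ID2. It covers 250 bases of the plus strand at chr15:88819396-88819645, with the ER stress element in capitals between 126 and 108 bases before the start.
Creld2: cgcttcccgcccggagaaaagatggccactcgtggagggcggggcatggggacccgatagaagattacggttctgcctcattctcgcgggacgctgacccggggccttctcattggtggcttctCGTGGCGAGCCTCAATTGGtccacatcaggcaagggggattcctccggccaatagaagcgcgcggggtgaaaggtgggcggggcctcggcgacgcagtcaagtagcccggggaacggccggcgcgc

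Libraries held 41120650 to 75664540 estimated reads each, and all 33 genes passed the filter on low counts. Levels are given as CPM, counts scaled by the TMM-adjusted library size, which compare a gene between livers. Calls rest on edgeR's quasi-likelihood test, with p adjusted by Benjamini-Hochberg over all 16428 genes and a threshold of 0.05. Of the cell-type lists, hepatocyte genes gave by far the highest summed level in every group, from 108311 to 247831 CPM. Genes of the exocrine pancreas summed to 2256 CPM in ID2_31, 174 CPM in ID4_15 and 53.0 CPM in ID8_98b, against 10.1 to 35.8 CPM in the other 24 livers. The 7 animals with title numbers under 200 are 2 of ID2, 2 of ID4 and all 3 of ID8, so the ID8 stage and that range of numbers cannot be told apart. What the numbers stand for is not given in the sources used here.

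On a length-scaled basis (TPM), Hspa5 was the most abundant member, with a mean of 713 TPM over the 27 livers. It encodes BiP, the ER's HSP70 chaperone. Calr (479.7 TPM), Hsp90b1 (434 TPM) and Manf (403 TPM) followed. Sensors were far lower on this scale, Ern1 at 14.9 TPM, Atf6 at 12.6 TPM and Eif2ak3 at 7.71 TPM. Asns, asparagine synthetase, was the lowest at 0.310 TPM, and its counts ran from 1 to 54 reads per liver.

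Some difference among the 7 stages was called for 14 of the 33 genes, against 27% of all genes tested. They were 2 of 3 sensors (Ern1 and Eif2ak3), 3 of 4 transcription factors (Atf4, Atf3 and Xbp1), 3 of 14 chaperones (Dnajb9, Sdf2l1 and Manf), 3 of 7 degradation genes (Sel1l, Syvn1 and Derl3) and 3 of 5 ATF4/CHOP targets (Trib3, Sesn2 and Ddit4). The joint count fell to 8 without the 3 libraries with pancreatic RNA and to 9 with the range of title numbers as a covariate, while leaving out single animals gave 10 to 17 and DESeq2 gave 21. The highest group mean was in LAC for 22 of the 33 genes and for 12 of the 14 chaperones. The lowest was in ID2 for 15 genes and in ID8 for 13. Of the ATF4/CHOP targets, Trib3 and Sesn2 had their highest mean in ID2 or ID4 and Ddit4 in LAC. Chac1 and Asns, neither of them called, had theirs in ID4 and ID2 through 1 liver each, Chac1 at 11.96 CPM in ID4_15 and Asns at 0.745 CPM in ID2_31. Both of these libraries held pancreatic RNA, and its part in these values was not tested.

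**Figure D1:**
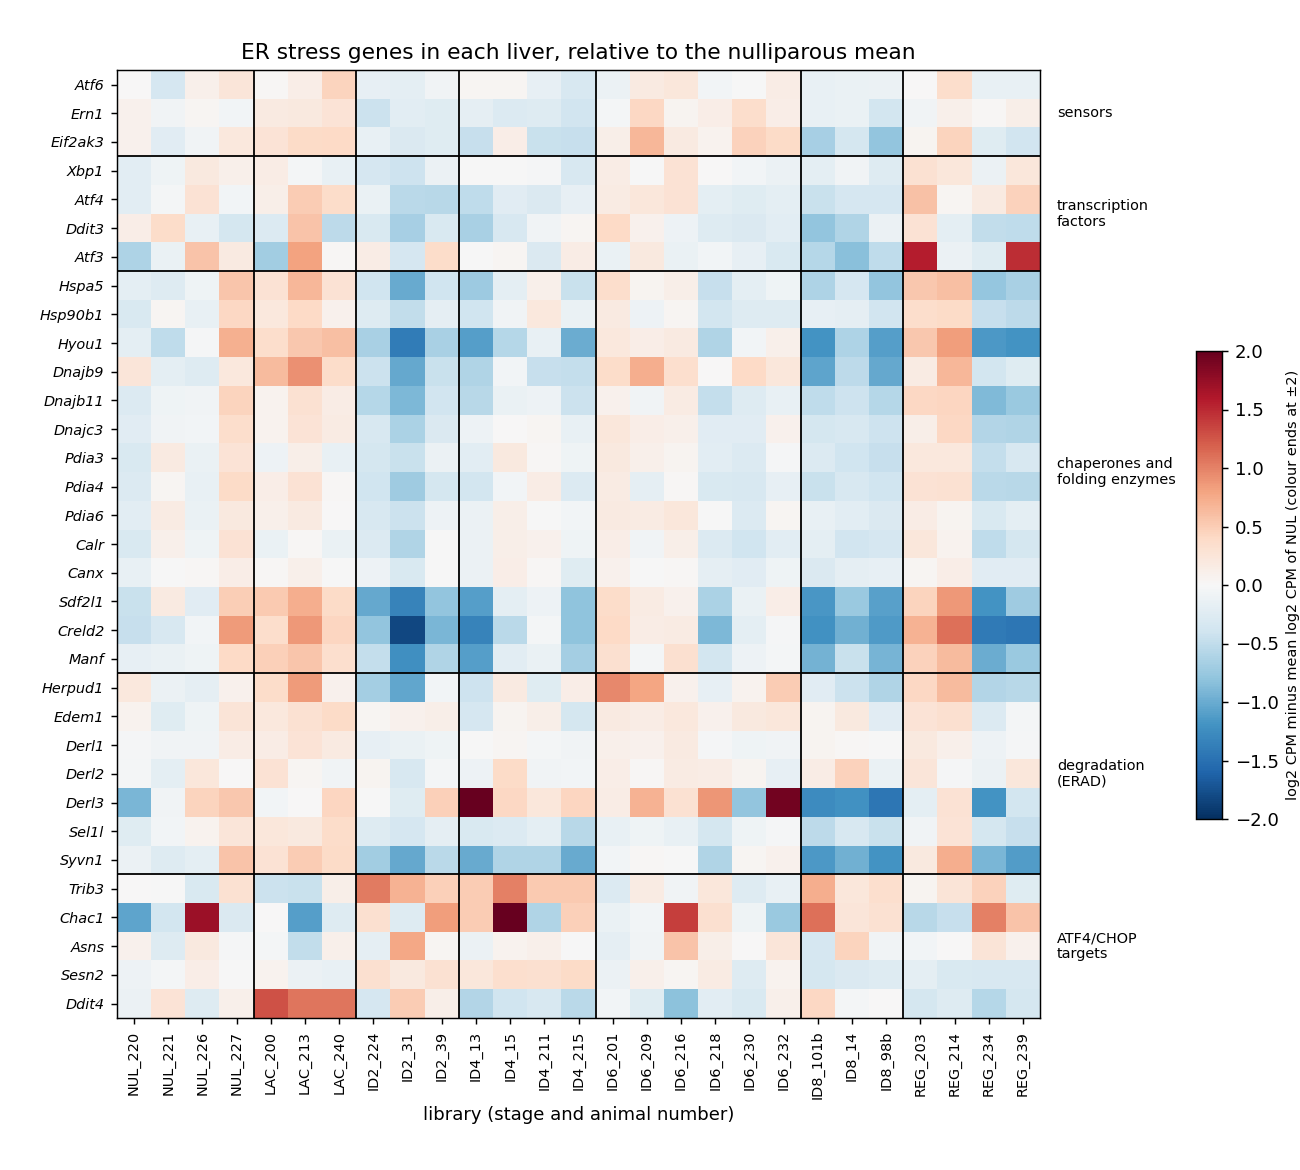
Each row is 1 of the 33 genes, grouped by role, and each column 1 liver. Colour gives log2 CPM minus the mean log2 CPM of the 4 NUL livers, with a pseudocount of 0.5 CPM and colour ending at ±2. All 14 chaperone rows lie below the NUL mean in every ID2 and ID8 liver, while the 3 LAC livers have 12, 14 and 11 chaperones above it.

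The step from lactation to 2 days after weaning held most of the calls. Between LAC and ID2, 17 of the 33 genes fell and 2 rose, against 16.1% of all genes called in either direction (7.64% lower and 8.48% higher). The falls comprised 2 of 3 sensors, 1 of 4 transcription factors (Atf4), 9 of 14 chaperones and folding enzymes, 4 of 7 degradation genes and Ddit4 among the 5 ATF4/CHOP targets. Trib3 and Sesn2 were the 2 that rose. The median log2 fold change was -0.51 over the 33 genes and -0.71 over the chaperones, against 0.02 over all genes tested. For 22 genes every ID2 liver was below every LAC liver, against 17.6% of all genes.

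How many genes passed depended on each animal. The count of 19 became 11, 7 and 11 without LAC_200, LAC_213 and LAC_240, and 9, 8 and 11 without ID2_224, ID2_31 and ID2_39. Ern1, Atf4, Dnajb9, Sel1l, Trib3 and Ddit4 were called in all 6 of these fits, and Sdf2l1 and Derl1 in all but 1. Called in none of them were Eif2ak3, Hspa5, Hyou1, Dnajc3 and Creld2. Without the 3 libraries with pancreatic RNA 7 genes were called (Ern1, Atf4, Dnajb9, Derl1, Trib3, Sesn2 and Ddit4). With only the livers numbered 200 and over, which leave 1 ID2 liver assumed to vary like the others, 3 were called (Ern1, Trib3 and Ddit4). With the range of title numbers as a covariate Eif2ak3, Herpud1, Syvn1 and all the called chaperones but Dnajb9 were lost. On log2(TPM + 1) with limma Ern1, Eif2ak3, Dnajc3, Pdia4, Pdia6 and Sel1l were lost (adjusted p of 0.0546 to 0.143). With the number of sequencing runs as a covariate Eif2ak3, Hyou1, Dnajc3, Pdia6, Creld2 and Herpud1 were lost. Other settings added calls: Hsp90b1 and Dnajb11 with DESeq2, and Atf6 besides these with the compared groups alone, where Herpud1 was lost.

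**Figure D2:**
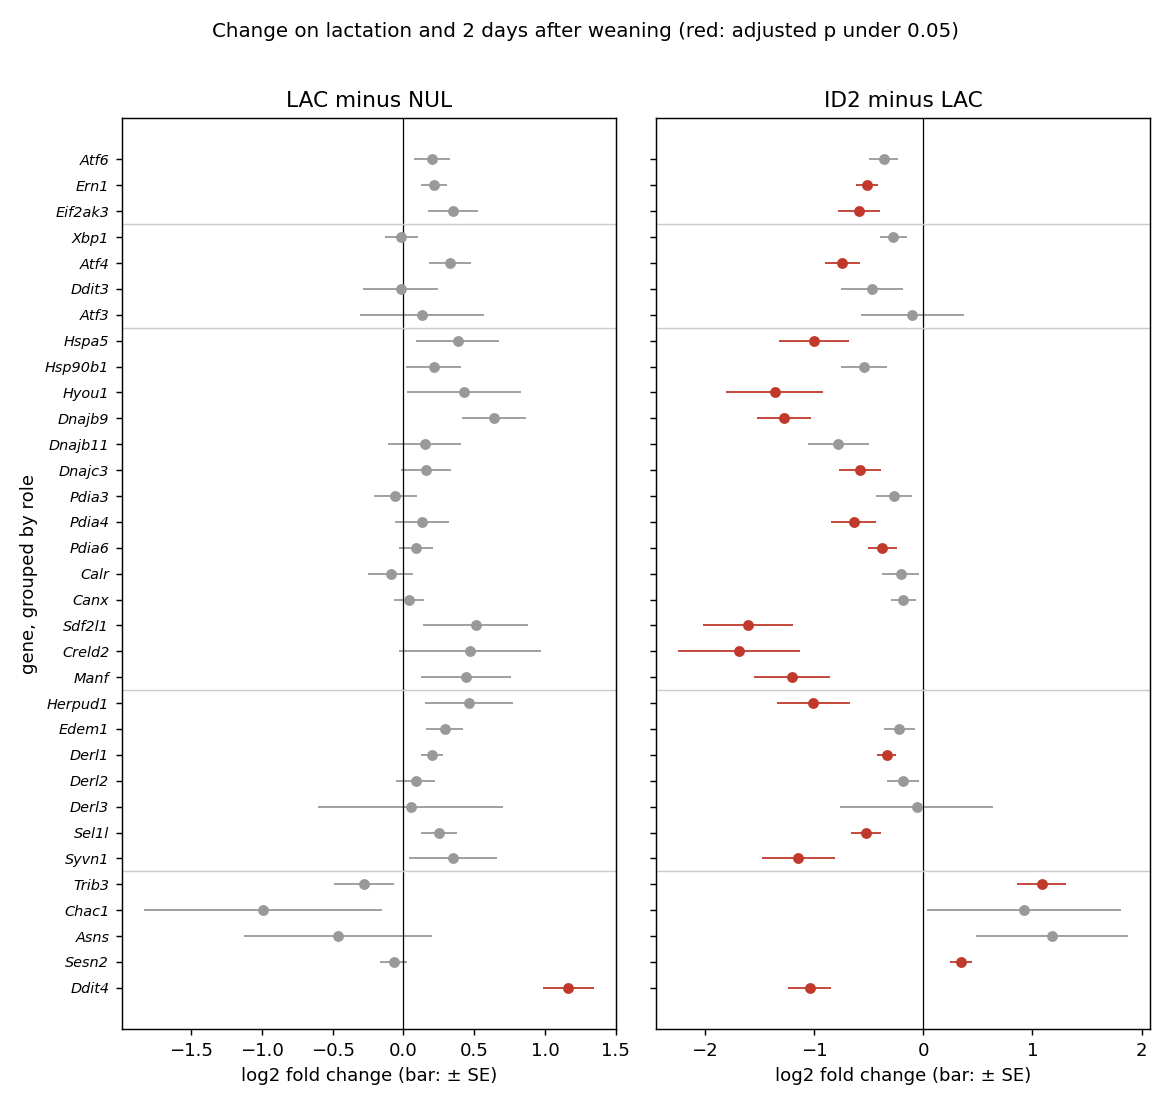
Log2 fold change (horizontal axis) of each of the 33 genes for LAC minus NUL on the left and ID2 minus LAC on the right, with bars of ± SE and called genes in red. On the left only Ddit4 is red, while on the right 17 genes are red below 0 and 2, Trib3 and Sesn2, are red above 0.

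Among the sensors, Ern1 changed from LAC to ID2, from ID4 to ID6 and from ID6 to ID8. Its level was 76.8, 68.7, 74.4 and 70.0 CPM in the NUL livers, 82.1, 82.8 and 87.6 CPM in LAC and 53.3, 62.7 and 61.1 CPM in ID2. All 3 LAC livers were above all 4 NUL livers, and all 3 ID2 livers were below both groups. Ern1 fell 1.43-fold from LAC to ID2 (log2 fold change -0.51, SE 0.10, edgeR adjusted p = 0.00096), and the call held in all 6 fits that left out an animal of either group, though not on log2(TPM + 1) with limma (adjusted p = 0.065). It lies at chr11:106394650-106487852 (GRCm38, GENCODE M21, as for all gene positions below).

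At later stages Ern1 read 63.8, 59.8, 60.6 and 55.7 CPM in ID4, from 70.5 to 96.4 CPM with a median of 79.5 CPM in ID6, 65.0, 66.3 and 55.9 CPM in ID8 and 69.0, 77.8, 73.8 and 78.5 CPM in REG. Every ID6 liver was above every ID4 and every ID8 liver. Ern1 rose 1.37-fold from ID4 to ID6 (log2 fold change 0.46, SE 0.08, edgeR adjusted p = 0.00075) and fell 1.32-fold from ID6 to ID8 (log2 fold change -0.40, SE 0.09, edgeR adjusted p = 0.0099). The fall was not called without ID8_98b (edgeR adjusted p = 0.0931). It was also lost with the range of title numbers as a covariate, with the compared groups alone and without the 3 libraries with pancreatic RNA (edgeR adjusted p of 0.102, 0.0657 and 0.112).

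Eif2ak3, at chr6:70844515-70905245, read 25.8, 20.7, 23.2 and 28.4 CPM in NUL, 29.6, 32.0 and 32.3 CPM in LAC, 22.0, 19.9 and 20.6 CPM in ID2 and 17.5, 26.9, 17.8 and 17.5 CPM in ID4. It then read from 25.7 to 39.1 CPM with a median of 29.8 CPM in ID6, 15.2, 18.99 and 13.9 CPM in ID8 and 25.4, 33.4, 20.6 and 18.5 CPM in REG. ID8 livers were below every ID6 liver, and the 1 ID4 liver that reached the ID6 range was ID4_15, which held pancreatic RNA. Eif2ak3 fell 1.505-fold from LAC to ID2 (log2 fold change -0.59, SE 0.19, edgeR adjusted p = 0.0362), a call lost in each of the 6 fits without 1 animal (edgeR adjusted p up to 0.11, at ID2_31). It rose 1.55-fold from ID4 to ID6 (log2 fold change 0.63, SE 0.15, edgeR adjusted p = 0.012), which was not called without ID4_13 (edgeR adjusted p = 0.0539). The fall from ID6 to ID8 was 1.92-fold (log2 fold change -0.94, SE 0.17, edgeR adjusted p = 0.00386) and held in all 9 fits without 1 animal, but not with the range of title numbers as a covariate (edgeR adjusted p = 0.102). In 8 libraries its counts were not whole numbers, so some reads were shared with other genes.

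Atf6 was the sensor with no called difference in the fit of all 27 livers (joint edgeR adjusted p = 0.208). It read 74.9, 81.2 and 100.2 CPM in LAC and 65.3, 64.1 and 70.1 CPM in ID2, where the groups did not overlap (log2 fold change -0.36, SE 0.14, edgeR adjusted p = 0.0672). This fall was called with the compared groups alone, with the clock index described below as a covariate and without LAC_200 (edgeR adjusted p of 0.0373, 0.0178 and 0.0483).

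Of the transcription factors, Atf4 at chr15:80255184-80257541 had the clearest step at weaning. It read 70.0, 78.9, 98.7 and 77.9 CPM in NUL, 87.1, 115 and 104 CPM in LAC and 73.3, 55.2 and 54.8 CPM in ID2. LAC and ID2 did not overlap, while LAC and NUL did. Atf4 fell 1.67-fold (log2 fold change -0.74, SE 0.16, edgeR adjusted p = 0.00259), and the call held without any 1 animal, though not with the livers numbered 200 and over alone (edgeR adjusted p = 0.322). Later livers read 56.4, 68.7, 65.7 and 71.7 CPM in ID4, from 68.2 to 98.3 CPM with a median of 80.4 CPM in ID6, 59.2, 63.8 and 63.5 CPM in ID8 and 122, 83.0, 91.8 and 111 CPM in REG. Every REG liver was above every ID8 liver, a difference that was not called with edgeR (log2 fold change 0.71, SE 0.15, edgeR adjusted p = 0.0952) and was with DESeq2, with limma on log2(TPM + 1) and with sequencing runs as a covariate.

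Xbp1 differed little, from 120.5 CPM in an ID2 liver to 198 CPM in a REG liver, and although the joint test called it (edgeR adjusted p = 0.0497), none of the 11 comparisons did in the fit of all 27 livers. Xbp1 was called from LAC to ID2 with the clock index as a covariate, and from ID4 to ID6 and ID6 to ID8 on log2(TPM + 1) with limma. On that scale the median log2 fold change over all genes was 0.074 from ID4 to ID6 and -0.068 from ID6 to ID8. Ddit3, which encodes CHOP, was not called in any test and read 5.55, 10.4 and 4.59 CPM in LAC and 5.39, 4.08 and 5.40 CPM in ID2 (joint edgeR adjusted p = 0.441). Atf3, a stress-induced factor, was called by the joint test (edgeR adjusted p = 0.0473) and in none of the 11 comparisons with edgeR, while DESeq2 called it for REG against ID8. Its REG livers read 7.19, 1.88, 1.68 and 6.65 CPM and its ID8 livers 1.24, 0.949 and 1.31 CPM, so that REG_203 and REG_239 stood above the other 2 of REG.

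**Figure D3:**
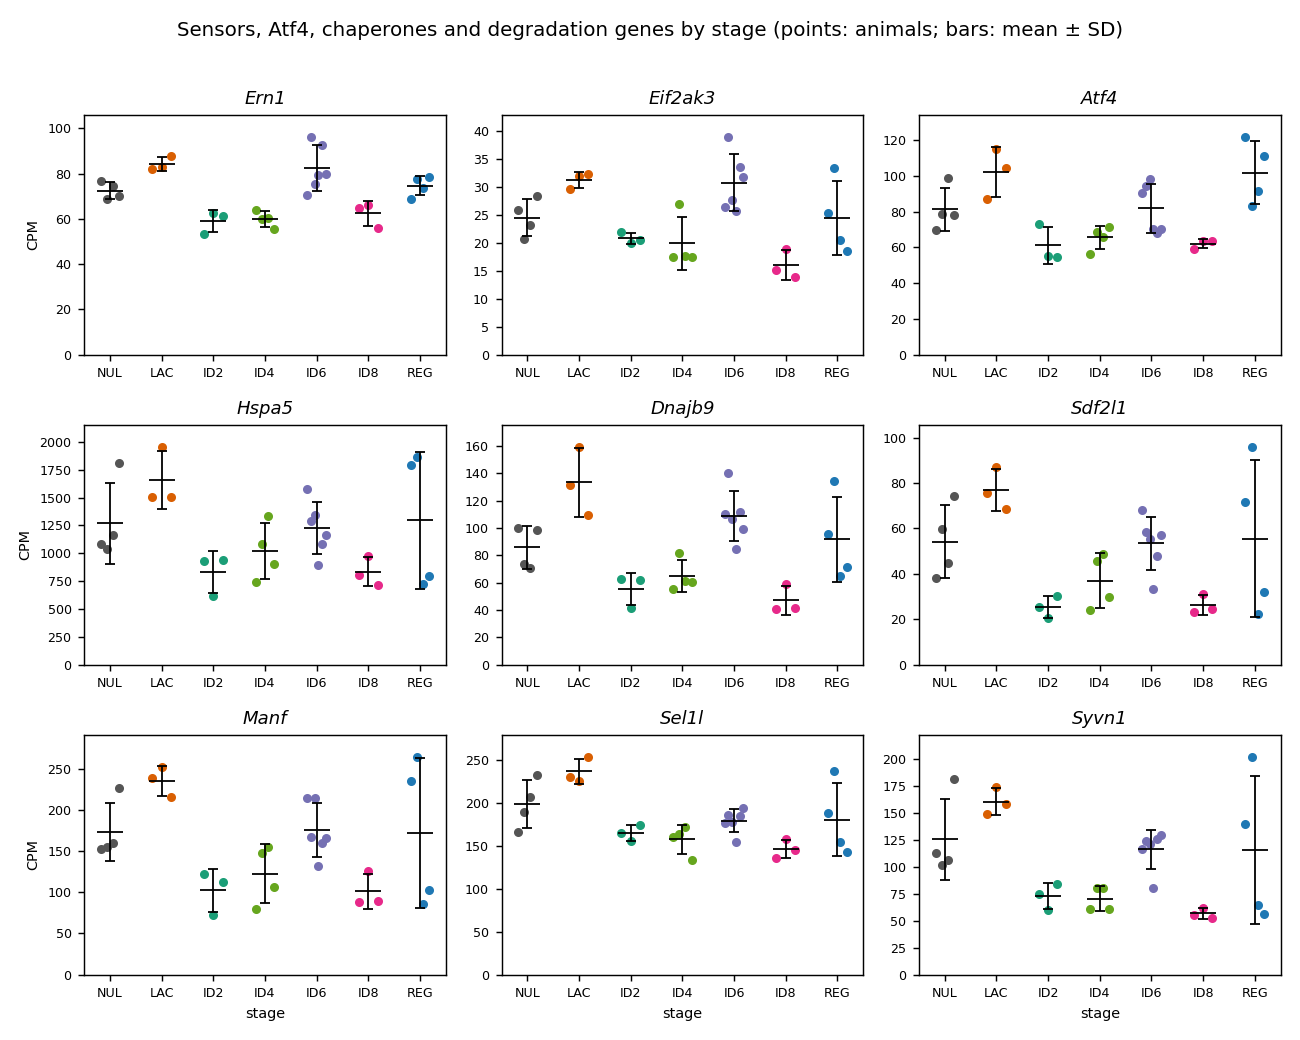
CPM (vertical axes, from 0) by stage for 2 sensors, Atf4, 4 chaperones and 2 degradation genes. Points are animals, and bars give the mean ± SD of 3 to 6 animals. In each panel the 3 LAC points lie above the 3 ID2 points, and the 4 REG points of Hspa5, Sdf2l1, Manf and Syvn1 lie 2 high and 2 low.

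Of the 14 chaperones 9 fell from LAC to ID2, with 0 called higher and all 14 fitted changes below 0. Called were Hspa5, Hyou1, Dnajb9, Dnajc3, Pdia4, Pdia6, Sdf2l1, Creld2 and Manf. Summed over the 14 genes the level was 6039 to 7189 CPM in LAC and 3408 to 4665 CPM in ID2, while NUL livers ran from 4664 to 7277 CPM. LAC against NUL gave 0 called chaperones of 14 with edgeR, where 11.2% of all genes were called. At an unadjusted p under 0.05 there was 1 of 14, against 23.6% of all genes. DESeq2 called 1, Dnajb9.

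Dnajb9, which encodes a cochaperone that loads BiP onto IRE1, was the chaperone with the smallest joint p (edgeR adjusted p = 0.000284). The gene lies at chr12:44205559-44210326. It read 99.8, 74.0, 70.7 and 98.6 CPM in NUL, 131, 159.6 and 109.6 CPM in LAC and 62.8, 41.6 and 61.8 CPM in ID2. No LAC liver overlapped NUL or ID2. From LAC to ID2 it fell 2.41-fold (log2 fold change -1.27, SE 0.25, edgeR adjusted p = 0.00146), and this was called without any 1 animal but not with the livers numbered 200 and over alone (edgeR adjusted p = 0.121). The rise from NUL to LAC was not called (log2 fold change 0.64, SE 0.22, edgeR adjusted p = 0.0717) with all 27 livers in the fit, and was called with DESeq2 and with the compared groups alone.

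Later, Dnajb9 read 55.5, 81.8, 61.5 and 60.5 CPM in ID4, from 85.0 to 140.3 CPM with a median of 108 CPM in ID6, 40.4, 58.9 and 41.6 CPM in ID8 and 95.3, 134, 65.2 and 71.8 CPM in REG. Every ID6 liver was above every ID4 and ID8 liver. It rose 1.68-fold from ID4 to ID6 (log2 fold change 0.75, SE 0.20, edgeR adjusted p = 0.0204), a call lost without ID4_13, ID4_211 or ID4_215 or without ID6_209 (edgeR adjusted p up to 0.0786, at ID4_13). That rise was also lost with the range of title numbers as a covariate and with the livers numbered 200 and over alone (edgeR adjusted p of 0.0861 and 0.0982). It fell 2.32-fold from ID6 to ID8 (log2 fold change -1.21, SE 0.22, edgeR adjusted p = 0.00413), which was called in all 9 fits without 1 animal and not with the range of title numbers as a covariate (edgeR adjusted p = 0.119).

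Hspa5 at chr2:34771970-34777547 carries the ER stress element printed above. It read 1081, 1035, 1161 and 1812 CPM in NUL, 1508, 1958 and 1508 CPM in LAC and 935, 613 and 943 CPM in ID2. NUL_227 was as high as the LAC livers, and the other 3 NUL livers lay between ID2 and LAC. Hspa5 fell 1.997-fold from LAC to ID2 (log2 fold change -0.998, SE 0.32, edgeR adjusted p = 0.0366), and the call was lost in all 6 fits without 1 animal (edgeR adjusted p up to 0.156, at ID2_31). The other stages read 746, 1084, 1333 and 907 CPM in ID4, from 897 to 1578 CPM with a median of 1229.6 CPM in ID6, 808, 977 and 718 CPM in ID8 and 1790.1, 1869.6, 726 and 794 CPM in REG.

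Sdf2l1, whose product works with BiP and its cochaperones, had the largest fall among the chaperones that the joint test called. The gene, at chr16:17130138-17132383, read 38.1, 59.5, 44.6 and 74.1 CPM in NUL, 75.5, 86.9 and 68.7 CPM in LAC and 25.6, 20.4 and 30.1 CPM in ID2, so that every ID2 liver was below every liver of the other 2 groups. It fell 3.04-fold (log2 fold change -1.60, SE 0.41, edgeR adjusted p = 0.0113), and of the 6 fits without 1 animal the one without ID2_31 lost the call (edgeR adjusted p = 0.0554). It was also lost with the range of title numbers as a covariate, without the 3 libraries with pancreatic RNA and with the livers numbered 200 and over alone (edgeR adjusted p of 0.07, 0.0697 and 0.265). Later livers read 24.0, 45.6, 48.6 and 29.8 CPM in ID4, from 33.5 to 67.9 CPM with a median of 56.3 CPM in ID6, 23.0, 31.1 and 24.5 CPM in ID8 and 71.8, 96.0, 22.5 and 31.9 CPM in REG.

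Manf, an ER-resident and secreted factor at chr9:106838312-106891979, read 152, 155, 160.3 and 226.4 CPM in NUL, 238, 252 and 216.1 CPM in LAC and 123, 72.5 and 112 CPM in ID2. ID2 was again below both other groups. It fell 2.30-fold from LAC (log2 fold change -1.20, SE 0.35, edgeR adjusted p = 0.0223), a call lost without LAC_200 or LAC_213 or ID2_31 or ID2_39 (edgeR adjusted p up to 0.106, at ID2_31). Its later levels were 79.6, 148, 155 and 106 CPM in ID4, from 132 to 214.6 CPM with a median of 166 CPM in ID6, 88.5, 126 and 89.8 CPM in ID8 and 235, 265, 85.6 and 103 CPM in REG.

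Among the other called chaperones, Creld2, a secreted ER stress gene, had the largest fall, 3.21-fold (log2 fold change -1.68, SE 0.56, edgeR adjusted p = 0.0446). It read 96.1, 138 and 102 CPM in LAC and 43.7, 21.1 and 40.0 CPM in ID2. Hyou1, which exchanges nucleotide on BiP, fell 2.57-fold (log2 fold change -1.36, SE 0.44, edgeR adjusted p = 0.0409) from 368, 416 and 439 CPM to 184, 109 and 183 CPM. Both calls were lost in all 6 fits without 1 animal, with edgeR adjusted p up to 0.17 for Creld2 and 0.16 for Hyou1, each without ID2_31. The falls of the cochaperone Dnajc3 and of the disulfide isomerases Pdia4 and Pdia6 were smaller, at log2 fold changes of -0.58, -0.64 and -0.37, and the calls were lost in 6, 5 and 5 of the 6 fits. The exceptions were the fits without LAC_240 for Pdia4 and without ID2_39 for Pdia6.

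The 5 chaperones that did not pass with edgeR were Hsp90b1 (log2 fold change -0.54), Dnajb11 (-0.78), Pdia3 (-0.26), Calr (-0.20) and Canx (-0.18). Hsp90b1 is the ER's HSP90 and Dnajb11 a BiP cochaperone, while calreticulin, calnexin and Pdia3 fold glycoproteins together. Calr read 700.2, 778 and 701 CPM in LAC and 631, 503 and 759 CPM in ID2, and these ranges overlapped. The ER stress element was thus present both in chaperones that were called (Hspa5, Creld2, Dnajc3 and Pdia6) and in chaperones that were not (Calr, Canx and Hsp90b1). In all 27 libraries the counts of Hsp90b1 were not whole, since reads were shared with other genes, so its level is less certain.

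**Figure D4:**
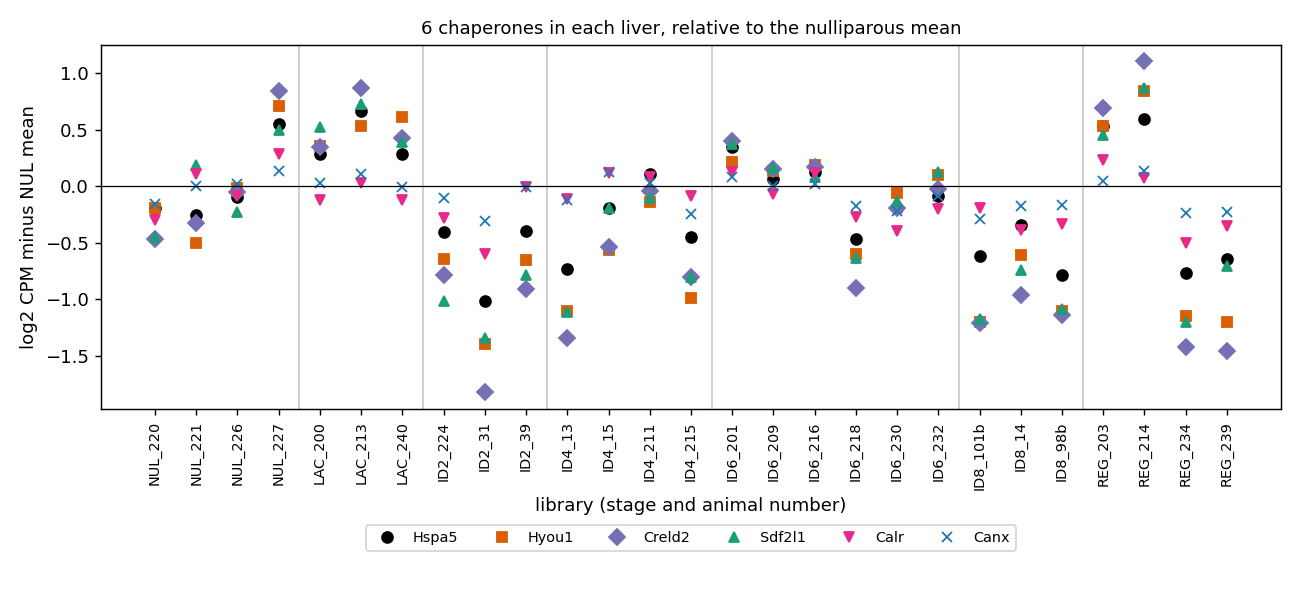
Log2 CPM minus the NUL mean (vertical axis, pseudocount 0.5 CPM) of 6 chaperones in each of the 27 livers. Calr and Canx move over a narrower range than Creld2, Hyou1, Sdf2l1 and Hspa5, and in REG all 6 are above 0 in REG_203 and REG_214 and below 0 in REG_234 and REG_239.

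ER-associated degradation sends misfolded proteins back to the cytosol for the proteasome. From LAC to ID2, 4 of its 7 genes fell, namely Sel1l, Syvn1, Herpud1 and Derl1, and 0 rose. Sel1l and Syvn1 encode the core of the HRD1 ubiquitin ligase, Herpud1 a membrane partner of it, and Derl1 a channel protein.

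Sel1l, at chr12:91806043-91849157, read 166, 189.6, 207 and 233 CPM in NUL, 230.2, 226.3 and 254 CPM in LAC and 165, 156 and 174 CPM in ID2. LAC and ID2 did not overlap. It fell 1.43-fold (log2 fold change -0.52, SE 0.14, edgeR adjusted p = 0.0105), called without any 1 animal. It was lost without the 3 libraries with pancreatic RNA, with the livers numbered 200 and over alone and with limma on log2(TPM + 1) (adjusted p of 0.0612, 0.23 and 0.101). Its later levels were 161, 163, 172 and 134 CPM in ID4, from 155 to 195 CPM with a median of 182 CPM in ID6, 136, 158 and 145 CPM in ID8 and 188, 238, 154 and 143 CPM in REG.

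Syvn1, at chr19:6046576-6053712, fell 2.21-fold (log2 fold change -1.14, SE 0.34, edgeR adjusted p = 0.0255), from 149, 174 and 159 CPM in LAC to 74.9, 59.8 and 83.6 CPM in ID2. NUL livers read 113, 102, 106 and 182 CPM, with NUL_227 above the rest. The Syvn1 call was lost without LAC_213 or LAC_240 or ID2_224 or ID2_31 (edgeR adjusted p up to 0.104, at ID2_31). Later livers read 60.7, 80.2, 80.5 and 60.7 CPM in ID4, from 80.4 to 129 CPM with a median of 123 CPM in ID6, 55.0, 62.3 and 53.0 CPM in ID8 and 140.0, 202, 64.6 and 55.9 CPM in REG. Herpud1 fell 2.01-fold (log2 fold change -1.01, SE 0.34, edgeR adjusted p = 0.0447), from 225, 316 and 185 CPM to 109, 84.9 and 168 CPM, a call lost without LAC_200 or LAC_213 or ID2_224 or ID2_31 (edgeR adjusted p up to 0.207, at LAC_213). The Herpud1 call was also lost without the filter on low counts, with the compared groups alone and without the 3 libraries with pancreatic RNA. With title number range, pancreas level or sequencing runs as a covariate it was lost too. Derl1 fell 1.26-fold (log2 fold change -0.33, SE 0.08, edgeR adjusted p = 0.00827), lost without LAC_213 (edgeR adjusted p = 0.0515) and with the livers numbered 200 and over alone (edgeR adjusted p = 0.154).

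Edem1, which picks out misfolded glycoproteins, and Derl2 were called in no comparison in the fit of all 27 livers, at joint edgeR adjusted p = 0.177 and 0.759. Edem1 was called from LAC to ID2 and from ID4 to ID6 with the clock index as a covariate, and in the latter on log2(TPM + 1) with limma. On that scale the median log2 fold change over all genes from ID4 to ID6 was 0.074. Derl2 counts were not whole in 22 libraries. Derl3, the third derlin, was sparse and uneven. It read 13.03, 2.89, 2.49 and 2.95 CPM in ID4, from 0.972 to 9.27 CPM with a median of 3.14 CPM in ID6 and 0.569, 0.604 and 0.442 CPM in ID8. The highest livers were ID4_13 and ID6_232, whose summed pancreas genes were 12.7 and 11.05 CPM, while ID2_31, with 2256 CPM of pancreas genes, read 1.65 CPM. The cell source of Derl3 was not tested. Derl3 fell 7.13-fold from ID6 to ID8 (log2 fold change -2.83, SE 0.73, edgeR adjusted p = 0.0322), a call lost on leaving out ID6_209 or ID6_232 or any of the 3 ID8 livers (edgeR adjusted p up to 0.136, at ID8_98b). It was lost as well without the filter on low counts, with the range of title numbers as a covariate, with the compared groups alone and without the 3 libraries with pancreatic RNA (edgeR adjusted p of 0.0525 to 0.157).

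The ATF4/CHOP targets did not move together. From LAC to ID2, 2 of 5 rose (Trib3 and Sesn2), 1 fell (Ddit4), and Chac1 and Asns were not called. Trib3 and Ddit4 at this step were the only members called in every fit and alternative run for that comparison.

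Ddit4 encodes REDD1, an inhibitor of the growth kinase mTORC1, and is known to answer to glucocorticoids as well as to ATF4. It had the smallest joint p of the set (edgeR adjusted p = 9.33e-07) and lies at chr10:59949669-59951834. The NUL livers read 8.46, 11.3, 7.67 and 9.92 CPM, the LAC livers 23.1, 19.9 and 19.9 CPM and the ID2 livers 7.26, 13.3 and 10.01 CPM. Every LAC liver was above every liver of any other stage. Ddit4 rose 2.24-fold from NUL to LAC (log2 fold change 1.17, SE 0.18, edgeR adjusted p = 0.000112) and fell 2.06-fold from LAC to ID2 (log2 fold change -1.04, SE 0.20, edgeR adjusted p = 0.000765), and both calls held without any 1 animal. These 2 comparisons share the LAC livers. The other stages read 5.97, 6.90, 7.34 and 6.19 CPM in ID4, from 5.01 to 9.90 CPM with a median of 7.83 CPM in ID6, 12.5, 9.03 and 9.27 CPM in ID8 and 7.13, 7.62, 6.07 and 7.17 CPM in REG.

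Trib3, a pseudokinase that binds ATF4 and CHOP, ran the other way. The gene, at chr2:152337422-152344032, read 4.08, 4.04, 3.17 and 5.14 CPM in NUL, 2.88, 2.85 and 4.43 CPM in LAC, 8.84, 6.88 and 5.83 CPM in ID2 and 5.96, 8.69, 6.07 and 6.01 CPM in ID4. All ID2 and ID4 livers were above all NUL and LAC livers. Trib3 rose 2.12-fold from LAC to ID2 (log2 fold change 1.08, SE 0.23, edgeR adjusted p = 0.00178), called without any 1 animal.

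Against NUL, Trib3 was 1.75-fold higher at ID2 (log2 fold change 0.81, SE 0.21, edgeR adjusted p = 0.0266) and 1.63-fold higher at ID4 (log2 fold change 0.70, SE 0.19, edgeR adjusted p = 0.0342). The ID2 call was lost in 5 of 7 such fits, all but those without NUL_227 or ID2_39 (edgeR adjusted p up to 0.161, at ID2_224). The ID4 call was lost in 4 of 8 fits, those without NUL_220, NUL_221 or NUL_226 or ID4_15 (edgeR adjusted p up to 0.135, at ID4_15). Both calls were also lost on log2(TPM + 1) with limma and with the range of title numbers or the clock index as a covariate. Without the 3 libraries with pancreatic RNA both were lost again. The ID2 call was lost with the pancreas level as a covariate too, and the ID4 call with the livers numbered 200 and over alone (edgeR adjusted p = 0.282). ID6 livers read from 3.26 to 4.82 CPM with a median of 3.70 CPM, all below ID4, and Trib3 fell 1.71-fold (log2 fold change -0.78, SE 0.17, edgeR adjusted p = 0.00589), called without any 1 animal but not with the livers numbered 200 and over alone (edgeR adjusted p = 0.128). It read 7.01, 4.83 and 5.24 CPM in ID8 and 4.21, 4.94, 5.78 and 3.35 CPM in REG.

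Sesn2, which restrains mTORC1 when leucine is short, varied within narrow limits. It lies at chr4:132492032-132510501. The levels were 11.7, 12.2, 13.9 and 12.5 CPM in NUL, 13.1, 11.5 and 11.3 CPM in LAC, 15.8, 14.4 and 15.6 CPM in ID2 and 14.7, 16.1, 15.7 and 16.5 CPM in ID4. All ID2 and ID4 livers were above all NUL and LAC livers, as for Trib3. Sesn2 rose 1.28-fold from LAC to ID2 (log2 fold change 0.35, SE 0.10, edgeR adjusted p = 0.0176), lost without LAC_213 or LAC_240 or ID2_224 or ID2_39 (edgeR adjusted p up to 0.0799, at LAC_213). It was 1.25-fold higher at ID4 than in NUL (log2 fold change 0.32, SE 0.09, edgeR adjusted p = 0.0288), lost in 6 of 8 such fits, all but those leaving out NUL_226 or ID4_13 (edgeR adjusted p up to 0.0839, at NUL_220). The ID4 call was also lost without the filter on low counts, on log2(TPM + 1) with limma and with the range of title numbers as a covariate. It was lost without the 3 libraries with pancreatic RNA and with the livers numbered 200 and over alone (edgeR adjusted p = 0.173 for the latter).

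Later, Sesn2 read from 10.4 to 14.1 CPM with a median of 13.04 CPM in ID6, 9.73, 10.1 and 10.4 CPM in ID8 and 10.8, 10.02, 9.97 and 9.91 CPM in REG. It fell 1.25-fold from ID4 to ID6 (log2 fold change -0.32, SE 0.08, edgeR adjusted p = 0.0115), called without any 1 animal. That call was lost with limma on log2(TPM + 1) (adjusted p = 0.148) and with the livers numbered 200 and over alone (edgeR adjusted p = 0.104). Sesn2 fell 1.25-fold from ID6 to ID8 (log2 fold change -0.32, SE 0.09, edgeR adjusted p = 0.0374), lost in 7 of the 9 fits that left out 1 animal, all but those leaving out ID6_201 or ID6_230 (edgeR adjusted p up to 0.165, at ID8_101b). The fall to ID8 was lost in 6 alternatives at the same threshold, with edgeR adjusted p up to 0.381 with the range of title numbers as a covariate. Every REG liver was below every NUL liver for Sesn2, which was not called (log2 fold change -0.30, SE 0.09, edgeR adjusted p = 0.255).

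Chac1 was not called in any test (joint edgeR adjusted p = 0.673). It read 0.691, 1.42, 7.54 and 1.52 CPM in NUL and 2.99, 11.96, 1.13 and 2.95 CPM in ID4, where a single liver, NUL_226 and ID4_15, was several times the rest. Asns, with the lowest counts of the set, was not called in any test (joint edgeR adjusted p = 0.81).

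**Figure D5:**
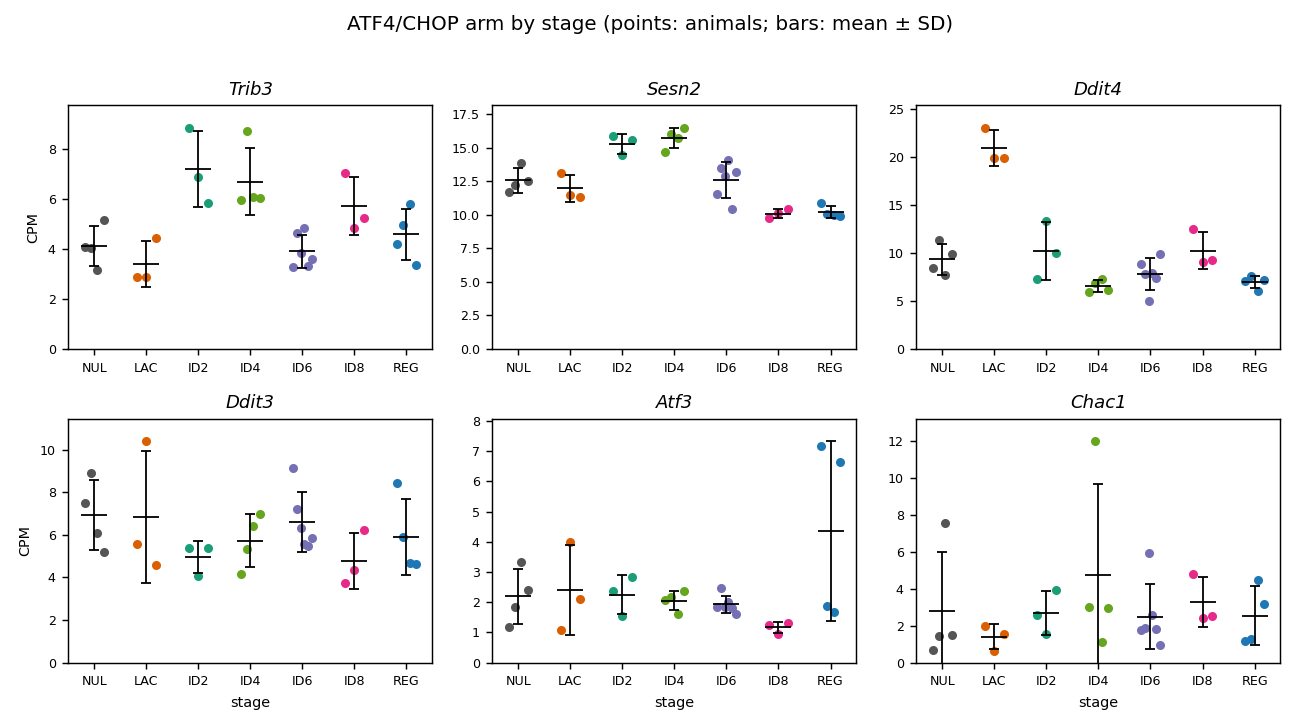
CPM (vertical axes, from 0) by stage for 3 ATF4/CHOP targets above and for Ddit3, Atf3 and Chac1 below. Points are animals, and bars give the mean ± SD of 3 to 6 animals, cut at 0 for Chac1. Ddit4 is highest in the 3 LAC livers, from 19.9 to 23.1 CPM, while Trib3 and Sesn2 are highest in ID2 and ID4.

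Against the nulliparous livers few members passed. At LAC, 1 of 33 rose (Ddit4) and 0 fell, against 11.2% of all genes called (5.19% higher). At ID2, 1 rose (Trib3), against 3.24% called (2.32% higher), and in 12 genes every ID2 liver was below every NUL liver, against 8.39% of all genes. Of those 12, 9 were chaperones. At ID4, 2 rose (Trib3 and Sesn2), against 4.25% called (2.64% higher). These comparisons share the NUL livers. Background shares here and below are those of the edgeR fit of all 27 livers, and none is given for DESeq2 or the other alternatives.

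At ID6, 0 of 33 were called against NUL with edgeR (background 1.08%) and 2 had an unadjusted p under 0.05 (background 11.9%), and DESeq2 also called 0. At ID8, 0 were called (background 0.499%), 16 had an unadjusted p under 0.05 (background 12.8%), and DESeq2 called 3 (Eif2ak3, Dnajb9 and Syvn1). In 18 genes every ID8 liver was below every NUL liver, against 6.03% of all genes, and 10 of them were chaperones. The smallest edgeR adjusted p at ID8 was 0.0945, for Dnajb9 (log2 fold change -0.87). At REG, 0 were called (background 0.0852%), 4 had an unadjusted p under 0.05 (background 7.17%), and DESeq2 called 0.

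Between consecutive stages after weaning, ID4 against ID2 gave 0 calls (background 1.49%), with 2 genes at an unadjusted p under 0.05 (background 13.9%) and 1 called by DESeq2 (Ddit4). From ID4 to ID6, 3 rose (Ern1, Eif2ak3 and Dnajb9) and 2 fell (Trib3 and Sesn2), against 8.53% called (3.89% higher and 4.64% lower). On log2(TPM + 1) with limma the same step gave 7 higher and 1 lower. The median log2 fold change over all genes was 0.074 on that scale, against 0.014 on counts. From ID6 to ID8, 5 fell (Ern1, Eif2ak3, Dnajb9, Derl3 and Sesn2) and 0 rose, against 4.12% called (1.75% lower). With the range of title numbers as a covariate 0 were called at that step. The steps into and out of ID6 share the ID6 livers. REG against ID8 gave 0 calls (background 0.0487%), with 15 genes at an unadjusted p under 0.05 (background 9.02%) and 3 called by DESeq2 (Atf4, Atf3 and Dnajb9).

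The REG livers differed widely among themselves in the chaperones. REG_203 and REG_214 had all 14 chaperones above the NUL mean, and REG_234 and REG_239 had 0 of 14 above it. Hspa5 read 1790.1 and 1869.6 CPM in the first pair and 726 and 794 CPM in the second. Hyou1 read 417 and 515 CPM against 129.5 and 125 CPM. The labels do not divide these animals, so no test was made. Among NUL livers, NUL_227 had all 14 chaperones above the NUL mean and NUL_220 and NUL_226 had 1 each. ID6 livers ran from 1 of 14 above (ID6_218 and ID6_230) to 14 of 14 (ID6_201 and ID6_216).

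Markers of other cell types moved between LAC and ID2 beside these genes. Of 11 Kupffer cell and macrophage genes 8 rose, with a summed level of 329 to 461 CPM in LAC and 453 to 567 CPM in ID2. Of 9 endothelial genes 5 rose, from 249 to 292 CPM in LAC to 342 to 359 CPM in ID2. Of 6 bile duct genes 1 rose, with sums of 21.7 to 28.4 CPM in LAC and 30.3 to 41.0 CPM in ID2. Of 11 hepatocyte genes 1 rose and 1 fell, with sums of 202169 to 247831 CPM in LAC and 156151 to 172272 CPM in ID2. None of the macrophage, endothelial or hepatocyte markers was at 0 in any LAC or ID2 liver. B and plasma cell genes, which mark cells rich in ER, summed to 21.0 to 35.3 CPM in LAC and 23.1 to 31.4 CPM in ID2, with 0 of 11 called. Of 17 pancreas genes tested 8 rose, with 14 and 16 of the 18 listed at 0 in ID2_224 and ID2_39 and 0 of them at 0 in ID2_31. Between NUL and LAC, 8 of the 11 macrophage genes, 3 of the 9 endothelial, 3 of the 11 B and plasma cell and 2 of the 6 bile duct genes fell, while 2 of the 11 hepatocyte genes rose and 1 fell. NUL livers summed to 499 to 627 CPM for macrophage genes and 116023 to 144139 CPM for hepatocyte genes. At ID4 against NUL, where Trib3 and Sesn2 were called, 7 of the 11 macrophage genes rose, with sums of 799 to 885 CPM in ID4, and 1 bile duct gene fell. At ID2 against NUL, where Trib3 was called, 4 of the 17 pancreas genes and 1 hepatocyte gene rose. So did 4 of 8 clock genes listed as day genes, while 2 of 5 listed as night genes fell. From ID4 to ID6, 1 hepatocyte gene fell. Of the 17 pancreas genes 10 had an unadjusted p under 0.05 at this step, against 22.9% of all genes, with 0 called by edgeR. From ID6 to ID8, 5 of the 11 macrophage genes fell, with sums of 651 to 1000.3 CPM in ID6 and 577 to 696 CPM in ID8. At that step 2 of the 11 B and plasma cell genes rose, with sums of 29.6 to 41.1 CPM in ID6, 51.4 to 53.3 CPM in ID8 and 18.1 to 31.9 CPM in NUL. The part of these cell types in the results was not tested.

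A clock index was the mean log2 CPM of 8 genes listed as day genes minus that of 5 listed as night genes. The day list was Dbp, Tef, Nr1d1, Nr1d2, Per1, Per2, Per3 and Ciart, and the night list Arntl, Npas2, Clock, Cry1 and Nfil3. Hours of peak were not measured. The index ran from -2.43 to -1.01 in LAC and from -0.94 to 1.03 in ID2. The hour of tissue collection is not given in the sources used here. With this index as a covariate 20 members were called between LAC and ID2, but not the same ones. Pdia6, Creld2 and Sesn2 were lost (edgeR adjusted p of 0.0524, 0.0545 and 0.0955), and Atf6, Xbp1, Dnajb11 and Edem1 were gained. The index ran from -2.002 to -0.803 in ID4, from -2.84 to -2.26 in ID6 and from -1.70 to -0.60 in ID8, so that ID6 overlapped neither neighbour. From ID4 to ID6, 1 of the 8 day genes fell and 1 of the 5 night genes rose, and from ID6 to ID8, 2 day genes rose and 2 night genes fell. With the index as a covariate all 5 calls from ID4 to ID6 were kept and Edem1 was added, while from ID6 to ID8 Sesn2 was lost (edgeR adjusted p = 0.0807) and Syvn1 was added. Cytosolic heat shock genes, which answer to another stress pathway, fell from LAC to ID2 in 7 of 9 cases, from 2412 to 3250 CPM summed in LAC to 1335 to 1622 CPM in ID2.

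Other genes of the secretory pathway, taken from lists outside the 33, fell in part at weaning. From LAC to ID2, 7 of 25 further folding genes, 9 of 30 translocation and glycosylation genes, 5 of 18 degradation genes and 4 of 23 vesicle transport genes fell, and 0 of these rose. Of 36 further ATF4 targets tested, 9 fell and 3 rose. Of 11 regulators of the eIF2 arm 1 fell. Of 9 other genes of the ER stress pathway (membrane-bound transcription factors, the proteases Mbtps1 and Mbtps2 and the RNA ligase gene Rtcb) 0 were called by edgeR. The called shares compare with 7.64% of all genes lower and 8.48% higher. At an unadjusted p under 0.05 there was 1 of those 9 genes, against 29.1% of all genes.

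Fkbp11, an ER prolyl isomerase, rose 3.09-fold from 4.22 ± 0.665 to 13.1 ± 0.213 CPM between NUL and LAC (SD, n = 4 and 3; log2 fold change 1.63, SE 0.23, edgeR adjusted p = 3.22e-05). It fell 3.01-fold to ID2 (log2 fold change -1.59, SE 0.25, edgeR adjusted p = 0.000105). Ero1b, which reoxidises the disulfide isomerases, fell 2.11-fold from LAC to ID2 (log2 fold change -1.08, SE 0.23, edgeR adjusted p = 0.00291). Among the further ATF4 targets, the tRNA synthetase gene Cars fell 2.06-fold at weaning (log2 fold change -1.04, SE 0.14, edgeR adjusted p = 2.80e-05), while Cth, which makes cysteine from cystathionine, rose 1.74-fold (log2 fold change 0.80, SE 0.17, edgeR adjusted p = 0.0023). In LAC against NUL 6 of the 36 further ATF4 targets rose and 0 fell, against 5.19% of all genes higher and 11.2% called either way. Among them were Gpt2 (1.78-fold, log2 fold change 0.83, SE 0.21, edgeR adjusted p = 0.0127) and Pck2 (1.64-fold, log2 fold change 0.71, SE 0.19, edgeR adjusted p = 0.0124), both mitochondrial enzymes. Creb3l2, an ER-bound factor of secretory cells, fell 2.05-fold from ID6 to ID8 (log2 fold change -1.04, SE 0.17, edgeR adjusted p = 0.00211) and was 1.94-fold higher in REG than in ID8 (log2 fold change 0.96, SE 0.18, edgeR adjusted p = 0.0495).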

How the data were processed

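RNA-seq libraries of 27 whole mouse livers were used (Trizol extraction, NEBNext Ultra RNA libraries, per the labels' protocols). The authors deposited estimated counts per gene and TPM for each library, per the file headers, made with STAR 2.6.1a and RSEM 1.3.1 on mm10/GRCm38, per the submitters' processing notes. The annotation release and any use of strand are not given in the sources used here. Library totals were 41120650 to 75664540, and no 2 libraries of a group agreed within sampling noise. Nothing in the labels states that animals were independent beyond being separate samples, so p-values measure the spread between these samples.

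Identifiers were matched to symbols with GENCODE M21, for 51633 of 51826. Estimated counts were rounded to whole numbers, filtered with filterByExpr (16428 genes left, 99.978% of counts or more kept per library) and TMM-scaled. All 27 libraries entered 1 edgeR 4.0.16 quasi-likelihood fit (R 4.3.3, robust, 20 residual degrees of freedom), with 11 comparisons and a joint test, Benjamini-Hochberg adjusted at 0.05. SE is the size of the log2 fold change over the square root of F. The scripts were tested on simulated data.

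The 33 members and the gene lists were chosen with earlier results of these data known. Values per animal were given by rule for up to 12 members with the smallest p among those the joint test called, and for sensors and transcription factors. Outside the 33, the rule took in each comparison at most the 3 called pathway genes with the largest rise and the 3 with the largest fall, at a mean of at least 1 CPM, and some of these are named. Per-animal values of other members (Hspa5, Hyou1, Creld2, Herpud1, Calr and Chac1 among them) were chosen after their values were seen. Alternatives were DESeq2 1.42.0, its size factors, no filter, limma 3.58.1 on deposited TPM as log2(TPM + 1), 3 covariates, an adjusted p of 0.01, only the compared groups, and single animals left out. Promoter sequences are RefSeq's (GRCm38.p6).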

Additional observations from a re-analysis of the deposited data

Results flagged for a closer look

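In groups of 4 or more animals, 12 of 132 member-by-stage sets had a highest or lowest liver standing farther from its neighbour than Dixon's 95% critical value allows. Chance flags about 1 in 20 such sets.

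NUL_227 was above the other 3 NUL livers for Hspa5 (1812 against 1035 to 1161 CPM), Manf (226.4 against 152 to 160.3 CPM) and Syvn1 (182 against 102 to 113 CPM). NUL_226 stood above the others for Chac1, at 7.54 against 0.691 to 1.52 CPM. ID4_15, whose library held pancreatic RNA (174 CPM summed), was above the other ID4 livers for Eif2ak3 (26.9 against 17.5 to 17.8 CPM), Derl2 (136 against 97.2 to 100.8 CPM) and Trib3 (8.69 against 5.96 to 6.07 CPM). ID4_13 was above the others for Derl3, at 13.03 against 2.49 to 2.95 CPM, and ID4_215 below them for Xbp1, at 128 against 157 to 159 CPM. In ID6, ID6_216 was high for Chac1 (5.94 against 0.973 to 2.58 CPM) and ID6_218 low for Syvn1 (80.4 against 117 to 129 CPM). REG_203 was high for Sesn2, at 10.8 against 9.91 to 10.0 CPM.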

How the results depend on the processing

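Of the 33 member-by-comparison calls, 12 were kept in every fit without 1 animal and 4 in every fit and alternative, and no direction reversed. The count for any difference among stages, 14, became 9 at an adjusted p of 0.01, 9 with the range of title numbers as a covariate and 8 without the 3 libraries with pancreatic RNA. For LAC against NUL the count of 1 became 2 with sequencing runs as a covariate, with only the compared groups and with DESeq2. For ID2 against NUL the count of 1 became 0 at 0.01, on log2(TPM + 1), with title numbers, clock index or pancreas level as covariates, without the 3 libraries and with only animals numbered 200 and over, and 3 with DESeq2. For ID4 against NUL the count of 2 became 1 without the filter and 0 at 0.01, on log2(TPM + 1), with title numbers, without the 3 libraries and with animals numbered 200 and over. For ID8 against NUL 0 became 1 with the clock index and 3 with DESeq2. For ID2 against LAC 19 became 11 without the filter, 6 at 0.01, 8 with title numbers, 10 with the pancreas level, 7 without the 3 libraries and 3 with animals numbered 200 and over. For ID4 against ID2 0 became 1 with DESeq2. For ID6 against ID4 5 became 2 at 0.01, 8 on log2(TPM + 1) and 2 with animals numbered 200 and over. For ID8 against ID6 5 became 3 without the filter, 3 at 0.01, 10 on log2(TPM + 1), 0 with title numbers, 2 without the 3 libraries and 8 with DESeq2. At that step the median log2 fold change over all genes was -0.068 on log2(TPM + 1), against 0.0007 on counts. For REG against ID8 0 became 1 on log2(TPM + 1), 1 with sequencing runs and 3 with DESeq2. The share of all genes called in each alternative is not given here. A changed count therefore does not tell a change in the members from one over all genes. The cause of these changes was not tested.

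Leaving out single animals gave 10 to 17 genes for any stage, 1 to 2 for LAC, 0 to 1 for ID2, 0 to 2 for ID4 and 0 to 0 for ID6, ID8 and REG, each against NUL. It gave 7 to 11 for ID2 against LAC, 0 to 1 for ID4 against ID2, 3 to 5 for ID6 against ID4, 2 to 5 for ID8 against ID6 and 0 to 0 for REG against ID8. Sequencing runs as a covariate, the fit without the 3 libraries and the fit of animals numbered 200 and over were chosen after seeing the data, and the last could not be run for ID8, which has no such animal. No paired analysis was possible because no title number occurs in more than 1 group. Counts limit the precision for Asns, at 1 to 54 reads per library.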
